A study of Rattus norvegicus with 40 samples.

Results

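Adrenal glands of female rats given the highest dose of an organophosphate ester mixture were compared with those of females given the lowest dose. The comparison held 10 of the 40 RNA-seq libraries of the study: 5 labelled female 30000x and 5 labelled female 30x. They were taken by their sex and dose labels, and no control library entered. The choice of this comparison, and of fitting it with and without 1 library of the high dose, was made with earlier results of these data known. All animals were adult Sprague Dawley rats, an outbred laboratory stock, and every animal of both groups had received the mixture. The labels name a dose as a multiple (30x, 1000x or 30000x). What amount a multiple stands for, the route, the length of exposure and any pooling of animals are not stated in the sources used here. The labels call the 5 replicates of a group biological without naming animals, so that p-values measure the spread between these samples. The comparison asks which adrenal transcripts differ between the ends of the dose range.

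The adrenal gland joins a cortex, which makes glucocorticoids, mineralocorticoids and other steroids from cholesterol, to a medulla of chromaffin cells, which release catecholamines. Organophosphate esters are added to plastics, foams and textiles as flame retardants and plasticizers. Their effects on steroid-producing tissues are a subject of toxicology, and the adrenal cortex takes up lipophilic chemicals readily because of its lipid content. In RNA from whole glands, fewer cells of a type and less RNA per cell cannot be told apart. The files list genes by Ensembl identifier, and 0 of them were found among the 47357 entries of the RefSeq gene table used here (GRCr8). Genes are therefore given by identifier, with no name or role, and the tissue label was not checked against marker genes.

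Levels are FPKM, fragments per kilobase of gene, which the authors scaled by size factors. Whole reads behind the FPKM values numbered 13527205 to 19744480 per library at 30000x and 16925587 to 22545372 at 30x. The mean was 15813600 ± 2399520 reads at 30000x and 18627800 ± 2340810 at 30x (SD, n = 5 each; exact two-sided permutation p = 0.087, adjusted over 3 values tested p = 0.26). Genes at 1 FPKM or more numbered 12333 ± 253 at 30000x and 12374 ± 212 at 30x (SD, n = 5 each; exact permutation p = 0.83, adjusted p = 0.83). The 10 most abundant genes took 30.6 ± 5.03% of reads at 30000x and 31.5 ± 4.43% at 30x (SD, n = 5 each; exact permutation p = 0.75, adjusted p = 0.83). With 5 libraries in each group the smallest p this design allows is 0.0079. Without female 30000x replicate 5, described next, the 30000x means were as follows (SD, n = 4). Genes at 1 FPKM or more numbered 12440 ± 94.9, above the 30x mean (exact permutation p = 0.57, adjusted p = 0.57). The 10 most abundant genes took 28.7 ± 3.06% of reads (exact permutation p = 0.32, adjusted p = 0.48). Reads numbered 16385200 ± 2344920 (exact permutation p = 0.17, adjusted p = 0.48).

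One library of the high dose, female 30000x replicate 5, stood apart from the other 9. Only 11905 of its genes reached 1 FPKM, the fewest of the 10, with 12390 to 12582 in the rest of its group and 12136 to 12568 at 30x. Its 13527205 reads were also the fewest of the 10, with 14342399 to 19744480 in the rest of its group. Whether the lower number of reads accounts for its other departures was not tested. Its size factor of 0.582 was the lowest of the 10, with 0.793 to 1.14 in the rest of its group and 0.709 to 1.15 at 30x. The most abundant gene, ENSRNOG00000034234, took 15.7% of its reads, against 8.19% to 9.50% in the other 30000x libraries and 8.37% to 12.4% at 30x. Its median correlation with the other 9 libraries, across genes on the log2(FPKM + 1) scale, was 0.896, and that of each other library lay between 0.956 and 0.962. The first principal component held 36.4% of the variance, and this library lay at 81.2 on it while the other 9 lay between -19.7 and 2.22. It held the highest of the 10 values for 26.6% of genes and the lowest for 29.5%. The comparison of the 2 doses was fitted with this library and without it, a choice made with earlier results of these data known.

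**Figure D1:**
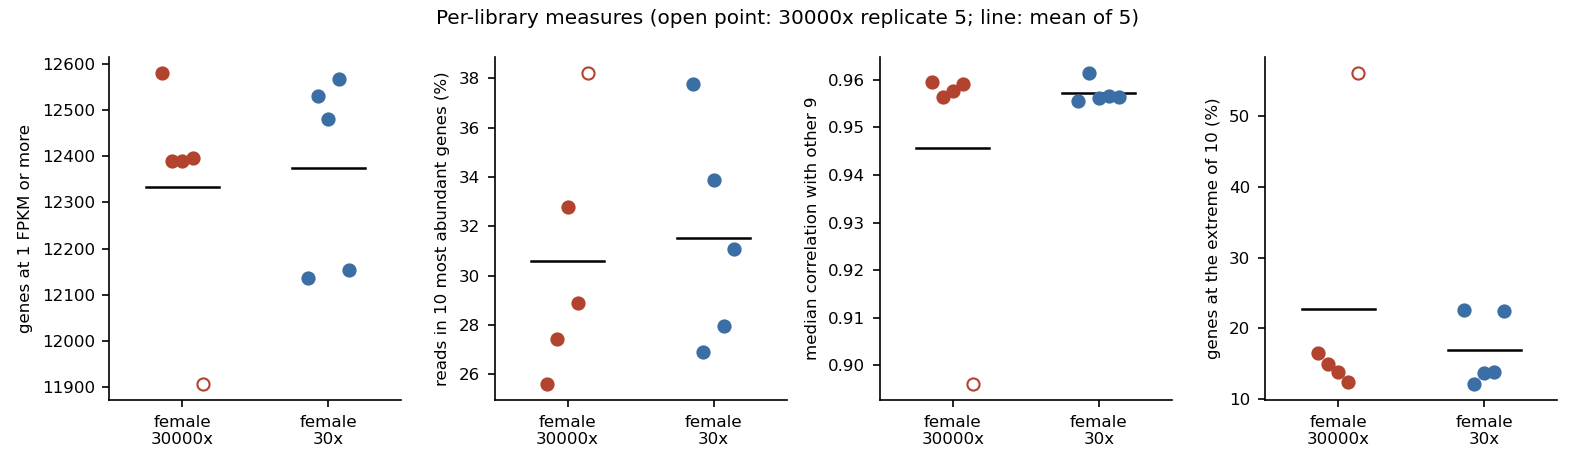
Each point is a library of the female 30000x (red) or female 30x (blue) group, the open point is 30000x replicate 5, and the line is the mean of 5. From left to right the axes show genes at 1 FPKM or more, percent of reads in the 10 most abundant genes, median correlation with the other 9 libraries, and percent of genes for which the library held the highest or lowest of the 10 values. For the highest or lowest values, replicate 5 lies at 56.1% and the other 9 libraries lie between 12.1% and 22.6%.

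Genes were kept at 1 FPKM or more in at least 5 of the 10 libraries, which left 12370 of the 20551 genes with any value. Of these, 10376 reached 1 FPKM in all 10 libraries. At the edge of this filter, 306 genes reached it in exactly 5 libraries, with a median level of 1.10 FPKM, and 343 left out reached it in exactly 4, with a median of 0.982 FPKM. Between 30000x and 30x, 0 of 12370 genes (0%) passed limma with Benjamini-Hochberg adjustment at an adjusted p under 0.05, and the smallest adjusted p was 0.061. Voom on the recovered reads also called 0, but it scaled to each library's read total and not by size factors. Without 30000x replicate 5 limma again called 0 of 12370 (0%), with a smallest adjusted p of 0.084. At an unadjusted p under 0.05, 247 genes (2.00%) differed, 0.849% of all genes higher and 1.15% (142 genes) lower at 30000x. Without replicate 5 there were 314 (2.54%), 154 higher (1.24%) and 160 lower (1.29%). Both counts lie below 618, which is 5% of the genes tested. The 2 sets shared 139 genes, 56.3% of the first and 44.3% of the second, and all 139 had the same sign in both fits, which share 9 libraries.

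The direction of these unadjusted differences moved with the scaling. Higher genes made up 42.5% of the 247, but 76.6% with scaling to each library's summed FPKM (118 genes, with 36 lower) and 69.7% with voom (106 genes, with 46 lower). Without replicate 5 they made up 49.0%, and 85.6% with summed FPKM and 87.9% with voom. Scaling to summed FPKM moved the median of all genes to 0.12 on the log2 scale in that fit, from -0.0046. Voom, which was scaled to read totals, gave a median of 0.0998.

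Most differences were small. The central 90% of the 12370 log2 differences lay between -0.38 and 0.32, and between -0.29 and 0.33 without replicate 5. A difference of 1 or more on the log2(FPKM + 1) scale was found in 76 genes (0.614%), and for genes of low level this scale shows less than the full change. Of these, 34 were higher (0.275%) and 42 lower (0.340%) at 30000x. Without replicate 5 the number was 73 (0.590%), but 52 were higher (0.420%) and 21 lower (0.170%). The fits with and without it shared 40 of these genes. In 34 of the 76 genes replicate 5 lay beyond the other 4 libraries of its group in the direction of the difference, 44.7% against 51.4% of all genes tested. Genes shorter than 1000 bp, by the length recovered from the values, made up 73.7% of the 76 and 15.6% of all genes tested.

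**Figure D2:**
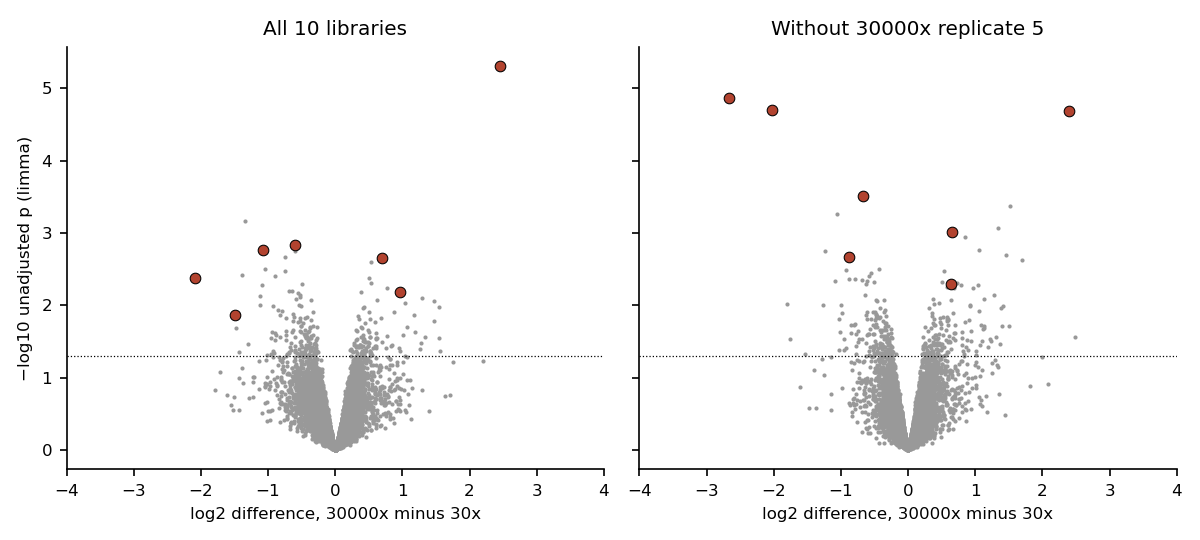
Each point is 1 of 12370 genes, with the log2 difference (30000x minus 30x) on the x axis and the −log10 of limma's unadjusted p on the y axis. Red points are the 7 genes described by identifier, and the dotted line marks an unadjusted p of 0.05. In the plot of all 10 libraries ENSRNOG00000036486 lies highest, and without 30000x replicate 5 it stands apart from the other genes together with ENSRNOG00000026051 and ENSRNOG00000058909, on the lower side.

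The 95% interval of the difference lay within ±1 on the log2 scale for 88.3% of genes, and for 91.3% without replicate 5. Within ±0.585, a 1.5-fold change for abundant genes, it lay for 54.9% and 65.3%. The median residual SD was 0.305 with replicate 5 and 0.252 without it. Precision differed between classes of level and length. Among 3756 genes averaging under 5 FPKM the interval lay within ±1 for 81.5%, among 7018 genes of 5 to 50 FPKM for 91.1%, and among 1596 genes of 50 FPKM or more for 91.7%. Without replicate 5 these shares were 84.7%, 94.1% and 94.2%. Among 1932 genes shorter than 1000 bp it did so for 59.2%, and among 3923 genes of 3000 bp or more for 96.6%, and without replicate 5 for 67.7% and 97.3%. The 50 FPKM class had a median log2 difference of -0.052, and -0.083 without replicate 5, and the class under 5 FPKM had 0.011 and 0.042.

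The genes described next had the smallest unadjusted p in each direction among genes averaging at least 5 FPKM in either group. They are a ranking and not calls. The first 2 in each direction were taken from the fit of 10 libraries and from the fit without replicate 5, which named 7 genes.

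ENSRNOG00000036486, with a recovered length of 90 bp, had the smallest p of all genes with the 10 libraries. At 30000x it held 8, 12, 7, 4 and 6 reads in replicates 1 to 5, or 4.44, 9.32, 5.58, 3.15 and 6.52 FPKM. At 30x only replicate 3 held reads of it, 2 in number (1.39 FPKM), and the other 4 libraries held 0. The filter at 1 FPKM was thus met only by the 5 libraries at 30000x and by 30x replicate 3. The gene entered the test through the group where it is high, so that its p-values are no independent support. The groups did not overlap. The log2 difference was 2.45 (SE 0.31, limma adjusted p = 0.061), and 2.39 without 30000x replicate 5 (SE 0.33, limma adjusted p = 0.084). The summed reads, 37 against 2, gave a ratio of 21.1 after scaling, with an exact 95% counting interval of 5.44 to 181 that covers counting error only. Without replicate 5 the ratio was 20.6, with an interval of 5.23 to 177. The gene passed the threshold without 30x replicate 3, at a log2 difference of 2.70 (limma adjusted p = 0.0061). That fit leaves only values of 0 at 30x, with no spread between them, so that its smaller p is no separate evidence. It also passed with the 5 female 1000x libraries added to the fit (limma adjusted p = 0.0047), and with scaling to summed FPKM (limma adjusted p = 0.024). With voom its adjusted p was 0.9999, the highest over the alternatives. At 1000x each library held 3 to 8 reads, 3.367 ± 1.195 FPKM (SD, n = 5), between the means of the other 2 doses.

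ENSRNOG00000016971 (2028 bp) was the second gene on the higher side. Its level was 16.96, 24.02, 19.86, 19.25 and 24.97 FPKM in the 5 libraries at 30000x, against 16.35, 12.93, 15.04, 10.90 and 8.56 FPKM at 30x. All 5 libraries at 30000x lay above all 5 at 30x, and the lowest of the 30000x group exceeded the highest of the 30x group by less than 1 FPKM. The 30000x mean of 21.01 ± 3.37 FPKM and the 30x mean of 12.76 ± 3.13 FPKM (SD, n = 5 each) gave a log2 difference of 0.70 (SE 0.18, unadjusted p = 0.0022, limma adjusted p = 0.9998). Without replicate 5 it was 0.63 (SE 0.18, unadjusted p = 0.0050, limma adjusted p = 0.9997). It rested on 518 to 697 reads per library at 30000x and 352 to 487 at 30x. At 1000x it averaged 17.7 ± 3.42 FPKM (SD, n = 5), again between the other doses.

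ENSRNOG00000042139 (1625 bp) led the lower side. It had 5.34, 4.47, 4.42, 4.40 and 6.38 FPKM at 30000x, against 6.57, 7.997, 8.44, 7.68 and 9.52 FPKM at 30x. The groups did not overlap, and the value nearest the 30x group was that of 30000x replicate 5. The log2 difference was -0.59 (SE 0.14, limma adjusted p = 0.9998), and -0.67 without that library (SE 0.13, limma adjusted p = 0.97). At 1000x the values ran from 4.05 to 15.6 FPKM and covered both groups.

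ENSRNOG00000054081 (91 bp) was the second gene on the lower side and was again short. It had 9.87, 4.61, 11.04, 6.23 and 3.22 FPKM at 30000x, against 15, 13.9, 17.2, 11.96 and 15.7 FPKM at 30x. All 5 libraries at 30000x lay below the 30x libraries. These levels rest on 3 to 18 reads per library at 30000x and 17 to 29 at 30x. The log2 difference was -1.08 (SE 0.27, limma adjusted p = 0.9998), and -0.87 without replicate 5 (SE 0.22, limma adjusted p = 0.9997). At 1000x it averaged 8.73 ± 3.01 FPKM (SD, n = 5).

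The other 3 genes entered through the fit without 30000x replicate 5, and in each of them this library lay far from the other 4 of its group. ENSRNOG00000026051 (1131 bp) held 9 reads in 30000x replicate 1 (0.397 FPKM), 0 reads in replicates 2, 3 and 4, and 85 reads in replicate 5 (7.35 FPKM). At 30x it had 3.12, 7.71, 4.93, 14.7 and 3.75 FPKM, with 44 to 290 reads per library. The log2 difference was -2.08 with all 10 libraries (SE 0.59, limma adjusted p = 0.9998) and -2.67 without replicate 5 (SE 0.35, limma adjusted p = 0.084). At 1000x replicate 2 held 157 reads (9.32 FPKM) and the other 4 libraries held 0 to 9. A single library with many reads beside 4 with few or none was thus seen in females at both higher doses, while at 30x all 5 female libraries held the transcript. Males showed such a single library at 30000x (107 reads, the others 0 to 7) and also at 30x (71 reads, the others 1 to 10). In the 10 female libraries the filter at 1 FPKM was met only by the 5 at 30x and by 30000x replicate 5.

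ENSRNOG00000058909 (2350 bp) had 12.1, 5.08, 9.62 and 6.09 FPKM in 30000x replicates 1 to 4 and 54.7 FPKM in replicate 5, against 29.9, 48.1, 47.8, 33.9 and 21.6 FPKM at 30x. Replicates 1 to 4 lay below all 30x libraries and replicate 5 above them. The log2 difference was -1.49 with replicate 5 (SE 0.51, limma adjusted p = 0.9998) and -2.02 without it (SE 0.28, limma adjusted p = 0.084). With 171 to 1315 reads per library at 30000x and 875 to 1880 at 30x, the gene was well covered. At 1000x it averaged 49.3 ± 14.1 FPKM (SD, n = 5), with a lowest library of 31.7 FPKM.

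ENSRNOG00000029670 (471 bp) had 31.3, 31.7, 32.6 and 28.3 FPKM in 30000x replicates 1 to 4 and 91.5 FPKM in replicate 5, against 25.6, 21.7, 16.9, 18.7 and 15.2 FPKM at 30x. The groups did not overlap with or without replicate 5. The log2 difference was 0.96 with it (SE 0.29, limma adjusted p = 0.9998) and 0.65 without it (SE 0.15, limma adjusted p = 0.9997). At 1000x the mean was 19.7 ± 5.02 FPKM, beside 19.6 ± 4.12 FPKM at 30x (SD, n = 5 each).

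**Figure D3:**
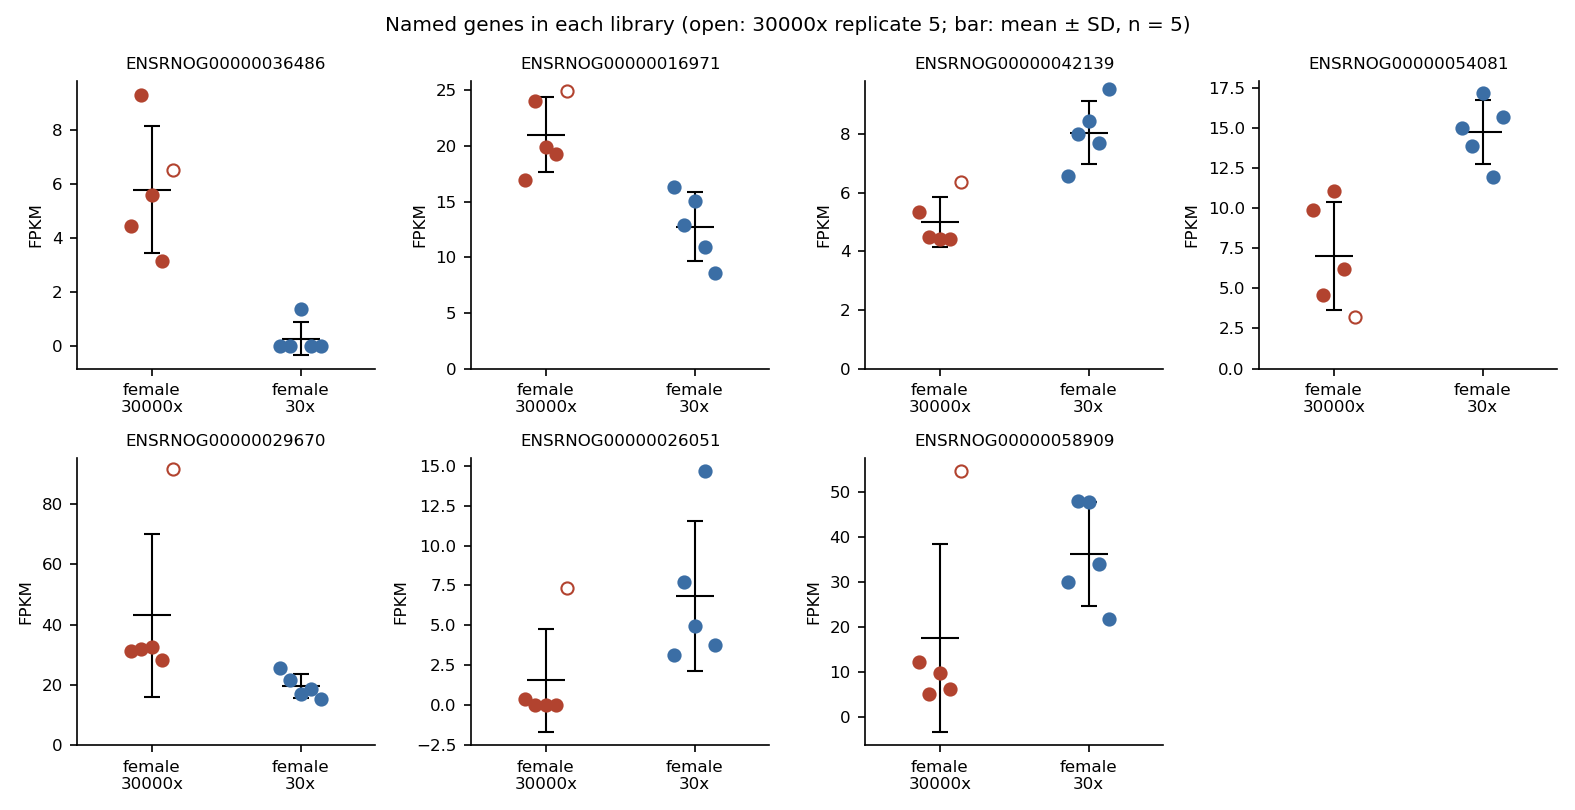
Points are FPKM in each female 30000x library (red, left) and female 30x library (blue, right), the open point is 30000x replicate 5, and bars are the mean ± SD of 5. ENSRNOG00000036486 is at 0 FPKM in 4 of the 5 libraries at 30x. In the lower 3 plots replicate 5, at 91.5, 7.35 and 54.7 FPKM, lies far above the other 4 libraries of its group.

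Across all genes tested, the 5 libraries at 30000x lay wholly above the 5 at 30x in 27 genes (0.218%) and wholly below in 26 (0.210%), 53 in all (0.428%). Without 30000x replicate 5 these numbers were 61 (0.493%), 57 (0.461%) and 118 (0.954%), and all 53 genes were among the 118, as leaving out a library cannot create an overlap. If the dose labels of the 10 libraries were exchangeable, full separation would have a probability of 0.0079 per gene. The 0.428% lies below that, and with 9 libraries the probability is larger still. The 53 genes are therefore given as a list and not as a set of changed genes. The median size of the difference in the 53 was 0.45 on the log2 scale, with a range of 0.10 to 2.45, and 4 of them reached 1. Over all genes tested the median size was 0.12, and 0.614% reached 1. Choosing genes for a gap between the groups by itself favours larger differences. No gene was at 1 FPKM or more in every library of one dose and under 1 FPKM in every library of the other.

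The 5 female 1000x libraries took no part in this choice and were read in the same genes. The 1000x mean lay between the means of 30000x and 30x in 42 of the 53 genes, nearer 30000x in 25 (47.2%) and nearer 30x in 17 (32.1%). It lay on the far side of 30x in 9 (17%) and on the far side of 30000x in 2 (3.77%). Over all 12370 genes it lay between the 2 means in 15% (nearer 30000x) and 16.6% (nearer 30x). The 53 genes were chosen for a gap between 30000x and 30x, which by itself widens the space between the means, so that these shares are a description and were not tested.

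**Figure D4:**
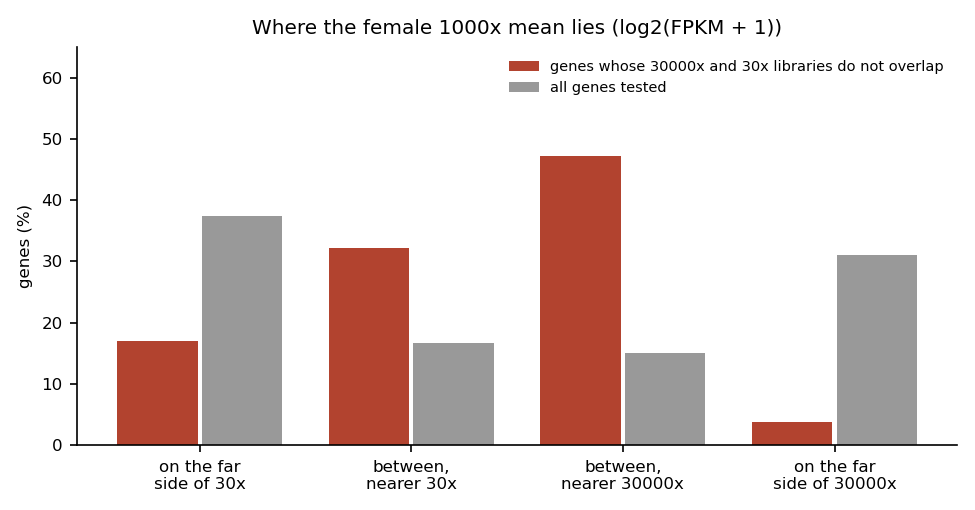
Bars give the percent of genes by where the mean of the 5 female 1000x libraries lies relative to the 30x and 30000x means on the log2(FPKM + 1) scale. Red bars are the 53 genes whose 30000x and 30x libraries do not overlap and grey bars are all 12370 genes tested. The red bars are highest between the doses, at 47.2% and 32.1%.

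The same doses were compared in males, 5 libraries each of male 30000x and male 30x. There limma called 0 of 12414 genes (0%), with 488 genes (3.93%) at an unadjusted p under 0.05. The median residual SD in males was 0.207, against 0.305 in females and 0.252 in females without 30000x replicate 5. The interval of the difference lay within ±1 for 94.1% of genes in males. Whether the difference between the doses differed between the sexes was tested as an interaction in the 20 libraries. It was called in 0 of 13203 genes (0%), with a smallest adjusted p of 0.999, and 351 genes (2.66%) had an unadjusted p under 0.05. Voom also called 0. Without female 30000x replicate 5 the numbers were 0 (0%) and 403 (3.05%), and without female 30000x replicate 2 they were 0 and 571.

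The genes named in females had male values of their own. ENSRNOG00000036486 averaged 1.36 ± 1.60 FPKM in males at 30000x and 2.09 ± 2.35 FPKM in males at 30x (SD, n = 5 each). Its female difference exceeded the male one by 2.81 on the log2 scale (SE 0.66, unadjusted p = 3.9e-04, limma adjusted p = 0.999), which did not pass the test. Without female 30000x replicate 5 the value was 2.76 (SE 0.69, limma adjusted p = 0.9998). ENSRNOG00000058909 averaged 15.03 ± 4.97 FPKM in males at 30000x and 12.74 ± 8.45 FPKM in males at 30x (SD, n = 5 each). The female minus the male difference was -1.87 (SE 0.68, unadjusted p = 0.013, limma adjusted p = 0.999), and -2.40 without female 30000x replicate 5 (SE 0.51, unadjusted p = 1.6e-04, limma adjusted p = 0.9998). Neither passed the test, and both genes were picked for small p in females. The male means of ENSRNOG00000058909 at both doses lay below the female 30x mean of 36.3 ± 11.5 FPKM (SD, n = 5), but single libraries overlapped. Male 30x replicate 3 had 24.1 FPKM and male 30000x replicate 4 had 22.1 FPKM, above the 21.6 FPKM of female 30x replicate 5. The difference in level between the sexes was not tested.

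ENSRNOG00000026051 did not pass the filter in the male libraries, where the mean was 0.937 ± 1.83 FPKM with 30000x and 0.942 ± 1.63 FPKM with 30x (SD, n = 5 each). It was kept in the interaction fit of 20 libraries. There its female minus male difference was -2.01 (SE 0.84, unadjusted p = 0.027, limma adjusted p = 0.999). Without female 30000x replicate 5 it was -2.60 (SE 0.69, unadjusted p = 0.0013, limma adjusted p = 0.9998). The other 4 named genes had male differences of the same sign as in females, between -0.30 and 0.33 on the log2 scale, each with a 95% interval that included 0. Their interaction had unadjusted limma p of 0.025 (ENSRNOG00000042139) to 0.26, with an adjusted p of 0.999 in each. Without female 30000x replicate 5 the unadjusted limma p ran from 0.010 (again ENSRNOG00000042139) to 0.41, with an adjusted p of 0.9998 in each. Of the 53 genes without overlap in females, 52 were tested in males. The male difference had the same sign in 29 of them (55.8%, against 50.5% of the 12020 genes tested in both sexes). An unadjusted limma p under 0.05 in males was found in 1 of them, against 3.93% of all genes tested in males. In 0 of them did the male groups not overlap, against 0.628% of all genes tested in males.

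**Figure D5:**
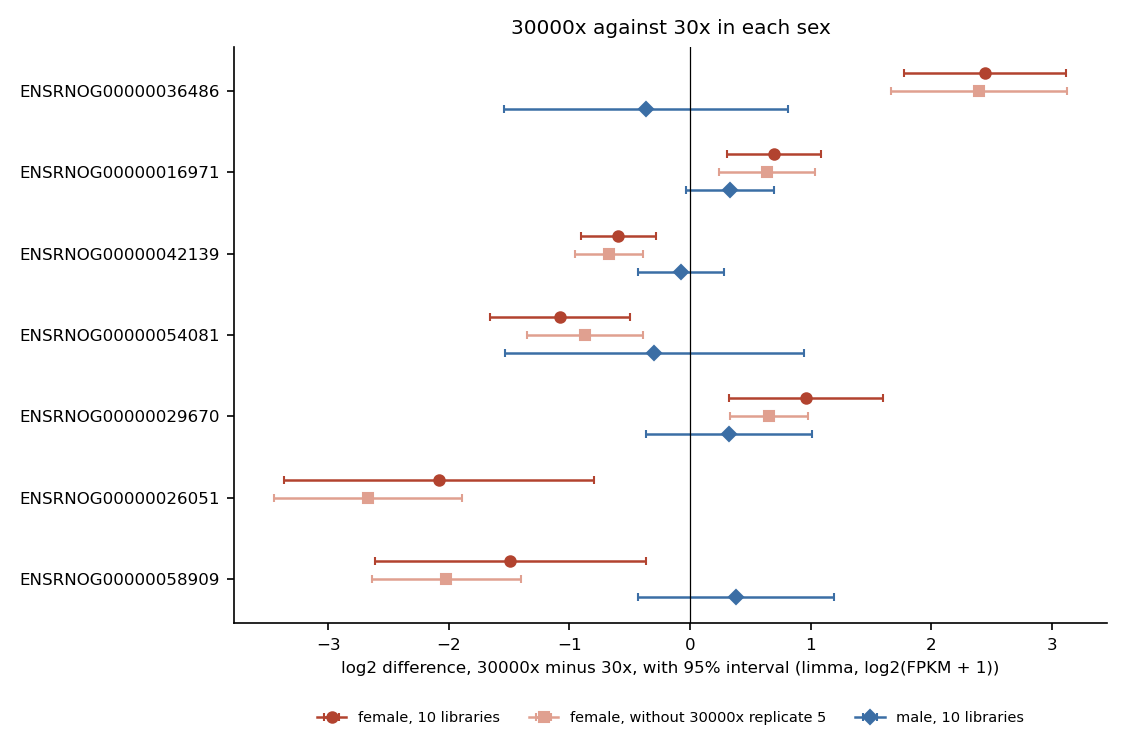
Log2 differences (30000x minus 30x) with 95% intervals for the 7 named genes in females with 10 libraries (red circles), in females without 30000x replicate 5 (pale squares) and in males (blue diamonds). The genes were chosen for small p in females, which keeps the female intervals off 0, and all 6 male intervals include 0. ENSRNOG00000026051 has no male value because it did not pass the filter there.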

How the data were processed

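Adrenal RNA was purified on Qiagen columns for Illumina sequencing, per the labels' protocols. The submitters' processing notes name HISAT2 2.0.5 and featureCounts 1.5.0-p3. The build, annotation, strand setting and whether a unit is a read or a read pair: not given in the sources used here. Values for 32545 genes were deposited as FPKM, 1 file per library, by the authors. For 20717 genes with a value in at least 3 of the 40 libraries, whole reads, library scales and gene lengths were solved from the values. The length of a gene was the shortest that put all its values within 0.05 of a whole read. Such a length was found for all 20717 genes, and the 100.0% of 680244 non-zero values within this tolerance follows from that rule. As the shortest length was taken, lengths and reads of genes with few reads may be smaller than the true ones. The scales equalled median-of-ratios size factors (largest relative difference 1.2e-11). FPKM here are thus not scaled to a library's own total.

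The test was limma 3.58.1 (R 4.3.3) on log2(FPKM + 1) values (trended prior, two-sided, Benjamini-Hochberg over all genes kept, threshold 0.05) in a fit of the 10 libraries alone, and of 9 without female 30000x replicate 5, keeping the same genes. The interaction with sex used 20 libraries. Single values per library were compared by exact permutation with scipy 1.17.1 in Python 3.11.15. The fits of 10 and of 20 libraries were also run on simulated reads, with a single spread per gene and no library that departs across genes. The fit of 9 libraries was not simulated. The outcome is not given here, and no result rests on it. The libraries, comparisons and naming rule were chosen with earlier results of these data known. The rule asked for genes with a symbol. As none had one, at most 2 identifiers per direction and fit were named. Fixed lists of pathway and marker genes were not analysed here for the same reason. Over the 20 pairs of libraries within the 2 groups, chi-square per degree of freedom was 29.0 to 134, so that none agreed within sampling noise.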

Additional observations from a re-analysis of the deposited data

Results flagged for a closer look

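Values far from the other 4 of their group were looked for in 47 groups of 5 values (Dixon's criterion at the 95% level), and 16 were found, where chance flags about 1 in 20 groups. Where the other 4 values are 0, any value above 0 meets the criterion, and groups that share a gene or a library are not independent. The genes were chosen on these libraries, so that the number found cannot be read against that chance rate.

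Female 30000x replicate 5 had 7 of these values, of which 3 are in genes that were named only through the fit without it, a choice that favours genes in which it departs from its group. Genes at 1 FPKM or more numbered 11905 in it (12390 to 12582 in replicates 1 to 4), and its median correlation with the other 9 libraries was 0.896 (0.956 to 0.960). It held the highest of 10 values in 3291 genes (850 to 977 in the other 4) and the lowest in 3647 (687 to 1068). It also had 91.5 FPKM of ENSRNOG00000029670 (28.3 to 32.6), 7.35 FPKM of ENSRNOG00000026051 (0 to 0.397) and 54.7 FPKM of ENSRNOG00000058909 (5.08 to 12.1).

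At 1000x, female replicate 5 had 15.6 FPKM of ENSRNOG00000042139, female replicate 1 had 28.4 FPKM of ENSRNOG00000029670, and female replicate 2 had 9.32 FPKM of ENSRNOG00000026051. At 30x, female replicate 3 had 1.39 FPKM of ENSRNOG00000036486 while the other 4 were at 0, and female replicate 2 had a median correlation of 0.962 with the other 9 libraries (0.956 to 0.957 in the other 4). In males ENSRNOG00000026051 was at 4.20 FPKM in 30000x replicate 3 and at 3.85 FPKM in 30x replicate 5. Male 30x replicate 5 also had 6.13 FPKM of ENSRNOG00000036486, and male 30x replicate 1 had 6.84 FPKM of ENSRNOG00000042139.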

How the results depend on the processing

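The count of 0 called genes was kept in 7 of 9 other settings and was 1 with scaling to summed FPKM and 1 in the fit of 15 dosed female libraries. Leaving out 1 library gave 0 to 1, with 1 only without female 30x replicate 3. Without female 30000x replicate 5 the count was 1 with scaling to summed FPKM and 0 in the other 7 settings. The gene was ENSRNOG00000036486 each time. For its own adjusted p, the range over left-out libraries was 0.0061 to 0.32. The sex interaction stayed at 0 in 8 settings and 20 left-out libraries. The replicate block called 0 genes (smallest adjusted p 0.58 with 10 libraries). Same-numbered samples were not treated as pairs. The correlation of same-numbered deviations ran from -0.192 to 0.227, 1 of 5 was over 0.1, and 0 of 5 libraries at 30000x correlated best with their own number. Replicate 5 enters the 30000x group mean and so every deviation from it, and these correlations cannot settle whether numbers mark a shared batch. With no filter 443 genes had an unadjusted p under 0.05, with a mean of at least 5 FPKM 146, with summed FPKM 154, with voom 152 and with 15 libraries 392, in place of 247; the sex interaction gave 593, 196 and 214 with the first 3 settings in place of 351, and 571 without female 30000x replicate 2. Without replicate 5, no filter gave 592 and a mean of at least 5 FPKM 193, in place of 314. Over left-out libraries the difference in genes at 1 FPKM or more (-41.4) ran from -103.7 to 65.6, above 0 without female 30000x replicate 5 (65.6) or female 30x replicate 4 (7.05). That in the share of the 10 most abundant genes (-0.934 percentage points) ran from -2.85 to 0.628, above 0 without female 30000x replicate 1 (0.316) or female 30x replicate 1 (0.628). That in reads ran from -3796910 to -1834820, with an exact permutation p of 0.016 without female 30000x replicate 1. The log2 difference of ENSRNOG00000036486 was 5.01 with a pseudocount of 0.1 and 3.68 with voom, in place of 2.45, and that of ENSRNOG00000026051 was -4.18 and -5.17, in place of -2.08. Medians of gene lists were not run, since no identifier has a name. Few reads lie behind some values: 2 of the 7 named genes rest on 29 reads or fewer in every female library of the 2 doses.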
